A study of Mus musculus with 3 samples.

Results

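The Havcr2/Entpd1+ cells described here are PD-1+ CD8 T cells of the pancreatic islets that carry RNA of Havcr2 or Entpd1 and none of Tcf7. They come from 3 droplet libraries, made from leukocytes (CD45+, live) of dispersed islets. The islets were those of female wild-type NOD mice, a strain that develops autoimmune diabetes. Each library pooled the islets of 2 to 3 mice, whose age is given as 15 to 16 weeks in the methods of the study and from 14 weeks in a legend. There was 1 condition with 3 replicates, so every comparison below is between groups of cells taken from the same libraries. No mouse was treated, and no value belongs to a single mouse. In the main tests, p-values measure how the difference between groups of cells varied over these pools. Pairs of libraries shared 12, 18 and 29 cell barcodes.

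A cell was counted when it held at least 1000 unique molecular identifiers (UMIs, 1 for each captured RNA molecule) and under 10% mitochondrial UMIs. Havcr2/Entpd1+ cells had a UMI of Cd3d, Cd3e or Cd3g, at least 2 UMIs of Cd8a and Cd8b1 together, no Cd4 UMI, at most 1 Cd79a UMI, at least 1 Pdcd1 UMI, at least 1 UMI of Havcr2 or Entpd1, and no Tcf7 UMI. This left 208 cells, with 55, 81 and 72 in replicates 1, 2 and 3, of 26947 cells in all. They were compared with the other 820 PD-1+ CD8 T cells that met the same Cd3, Cd8, Cd4, Cd79a and Pdcd1 conditions. Among those 820, 426 were Tcf7+ cells without Havcr2 or Entpd1, 354 had none of the 3 genes (Tcf7- Havcr2/Entpd1- cells), and 40 had Tcf7 together with Havcr2 or Entpd1.

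Havcr2 encodes TIM-3, an inhibitory receptor, and Entpd1 encodes CD39, an enzyme on the cell surface that breaks down extracellular ATP. T cells that meet their antigen for a long time are known to pass from a progenitor state, kept by the transcription factor TCF-1 (Tcf7) and able to renew itself, to a differentiated state with several inhibitory receptors and cytotoxic granules. TIM-3 and CD39 are widely used to mark the differentiated end, and in the islets of NOD mice CD8 T cells kill beta cells.

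The gate was set on UMIs of these genes, so their levels describe the cells and test nothing. Havcr2 stood at 119.6, 335 and 219 counts per 1e6 UMIs (CPM) in the Havcr2/Entpd1+ cells of replicates 1, 2 and 3, and Entpd1 at 139, 217 and 194 CPM. Pdcd1, which both groups had to carry, stood at 437, 595 and 594 CPM in Havcr2/Entpd1+ cells and 464, 448 and 528 CPM in the other PD-1+ CD8 T cells. Havcr2 lies at chr11:46454935-46481255 and Entpd1 at chr19:40612366-40741602, both on the plus strand of GRCm38 in GENCODE M21. The T-cell receptor constant gene Trac, outside the gate, was at 494, 631 and 556 CPM, and the NK cell genes Ncr1 and Klrb1c were listed at 0 UMIs in all 3 libraries. Of the 208 cells, 18 had no Cd8b1 UMI and entered by Cd8a alone. The cells are named by their gate, and whether they are terminally exhausted was not tested. Tox and Tigit did not pass as higher than in the other PD-1+ CD8 T cells, which carried RNA of both genes too. A UMI of a proliferation gene was seen in 53 of the 208 cells.

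Havcr2/Entpd1+ cells made up 23.4% of the PD-1+ CD8 T cells in replicate 1 (exact 95% interval 18.1 to 29.3%), 24.6% in replicate 2 (20.1 to 29.6%) and 15.5% in replicate 3 (12.3 to 19.1%). The interval of replicate 3 lay below that of replicate 2 and overlapped that of replicate 1. Of all CD8 T cells in the gate, with or without Pdcd1, they were 9.77%, 6.76% and 4.85%. These intervals cover counting error only and say nothing of the spread between mice. Havcr2 was the sole gate gene in 47 cells, Entpd1 in 73, and 88 cells (42.3%) held both, with 18, 45 and 25 such cells in the 3 libraries.

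**Figure D1:**
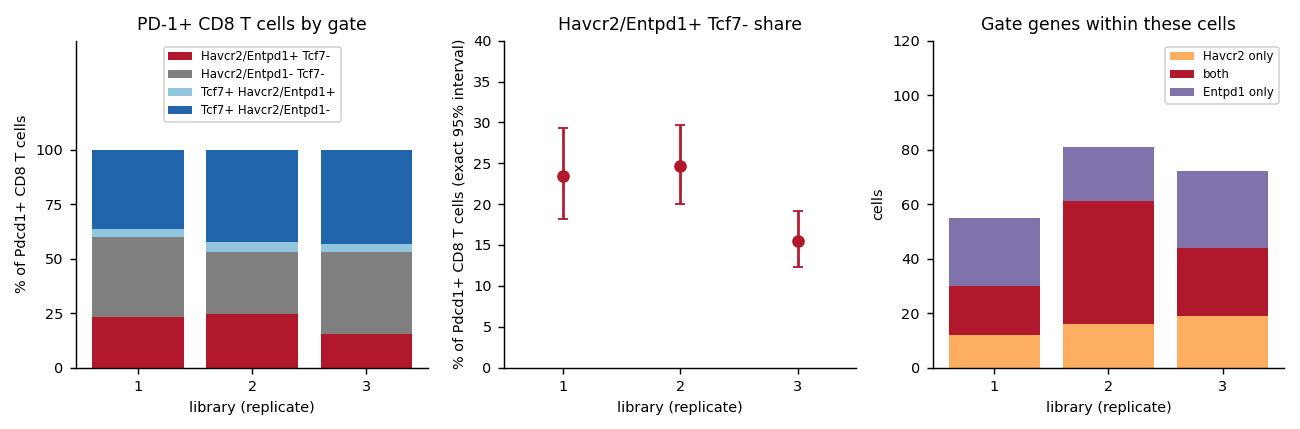
Left, shares of 4 gate-defined groups among PD-1+ CD8 T cells in each library, in percent. Middle, the share of Havcr2/Entpd1+ Tcf7- cells with its exact 95% interval. Right, number of these cells with Havcr2 only, Entpd1 only or both. The share is 23.4% and 24.6% in replicates 1 and 2 and 15.5% in replicate 3, and cells with both genes are most frequent in replicate 2 (45 of 81).

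Many cells stood close to the edge of the gate. A total of 50 of the 208 had exactly 1 UMI of Havcr2 and Entpd1 together, 72 had 2 or 3, and 86 had 4 or more, with a median of 3 and a highest value of 21. Exactly 1 Pdcd1 UMI was seen in 31 cells and exactly 2 UMIs of Cd8a and Cd8b1 together in 18. Just outside, 18 cells failed by a single Tcf7 UMI, 116 by the lack of a Pdcd1 UMI, 22 by a single CD8 UMI, 30 by a Cd4 UMI and 19 by Cd79a. At these depths a count of 0 for Tcf7 or Havcr2 in 1 cell does not show that the gene was silent. The median depth was 6376, 7783 and 8119 UMIs per Havcr2/Entpd1+ cell in the 3 libraries and 5125.5, 8083.5 and 6711.5 per other PD-1+ CD8 T cell, so neither group was deeper in every library. The sums over Havcr2/Entpd1+ cells held 510173, 791156 and 656225 UMIs.

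The transcriptome of the Havcr2/Entpd1+ cells was then compared with that of the other PD-1+ CD8 T cells. They had higher RNA of granule proteins, of death ligands, of the chemokine receptors Cxcr6 and Ccr2 and of the transcription factors Prdm1, Id2 and Maf. They had lower RNA of genes of circulating, naive and memory cells, such as Ccr7, Il7r, S1pr1 and Bach2. Gzmb was 5.98-fold higher and Cxcr6 4.94-fold higher, while Bach2 was 6.77-fold lower, each with the same direction in 3 of 3 libraries. With edgeR's quasi-likelihood test on UMIs summed per library and group, blocked by library and adjusted after Benjamini and Hochberg, 877 of 7458 genes (11.8%) passed an adjusted p of 0.05. Of these, 445 were higher in the Havcr2/Entpd1+ cells (5.97% of the genes tested) and 432 lower (5.79%). The 11 genes of the gate were left out of the test. DESeq2 called 444 genes on the same sums and 65 passed without the library block, while 411 passed without replicate 2 and 450 without replicate 3.

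**Figure D2:**
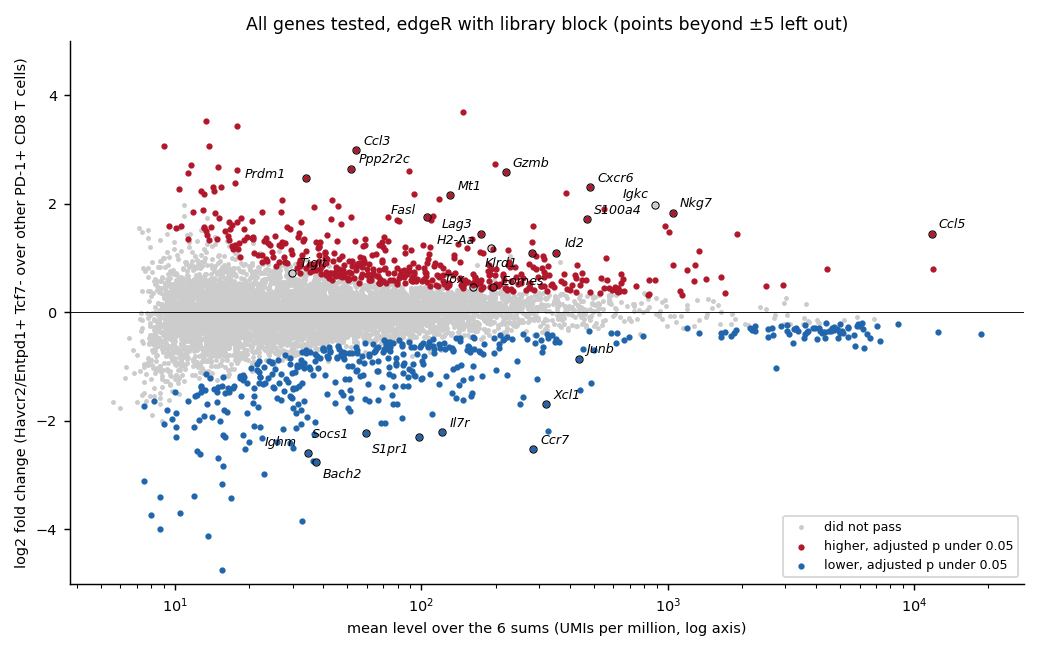
Each point is 1 of the genes tested in Havcr2/Entpd1+ cells against other PD-1+ CD8 T cells. The horizontal axis is the mean level in CPM (log axis) and the vertical axis the log2 fold change; Dapl1, with no UMI in the Havcr2/Entpd1+ cells, is left out. Red and blue points passed an adjusted p of 0.05, and Gzmb, Cxcr6 and Ccl5 stand high while Bach2 and Ccr7 stand low.

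Cytotoxic genes were higher. Of 17 listed granule and death ligand genes 16 were tested, of which 9 rose and none fell. Among all genes tested, 5.97% rose and 5.79% fell. The median log2 fold change of the list was 0.92, against 0.00 over all genes tested. The list had 7 higher genes without replicate 3 and 3 without the library block. Gzmb, the serine protease granzyme B that granules deliver into target cells, was at 517, 240.2 and 378 CPM in the Havcr2/Entpd1+ cells of replicates 1, 2 and 3. In the other PD-1+ CD8 T cells it was at 79.1, 57.3 and 44.5 CPM. The lowest Havcr2/Entpd1+ value was above the highest of the others, with a log2 fold change of 2.58 ± 0.18 (SE, adjusted p = 3.79e-06). Nkg7, a granule membrane protein needed for full degranulation, was at 1879.8, 1474 and 1499 CPM against 739.7, 350.1 and 323 CPM (log2 fold change 1.83 ± 0.13, adjusted p = 3.79e-06). Fasl, the ligand of the death receptor Fas, was at 116, 191 and 183 CPM against 40.6, 47.9 and 51.4 CPM (log2 fold change 1.75 ± 0.14, adjusted p = 1.29e-05). For both genes the groups did not overlap.

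Prf1, the pore-forming perforin, rose less, from 38.9 ± 10.4 to 76.9 ± 9.25 CPM (mean ± SD, n = 3 libraries; log2 fold change 0.90 ± 0.17, adjusted p = 0.00445). The lysosomal proteases Ctsd and Ctsc, the latter of which activates granzymes, and Tnfsf10, which encodes the death ligand TRAIL, had log2 fold changes of 1.04, 0.99 and 1.02. The call of Tnfsf10 was lost in 9 of 14 alternatives. Gzma did not pass in the main fit. The gene passed in 4 of 16 alternatives, over which its log2 fold change ran from -0.83 to 1.78. It was at 529, 158 and 256 CPM against 140.4, 216 and 77.1 CPM (log2 fold change 1.03 ± 0.35, adjusted p = 0.0752), and 157 of its 270 UMIs in the Havcr2/Entpd1+ cells of replicate 1 lay in 1 cell. The UMIs of Gzmb were spread over 31, 38 and 37 cells of the 3 libraries, with at most 61 in a single cell.

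The killer-cell lectin-like receptors, which NK cells share with effector CD8 T cells, were also higher. Of 10 listed, 6 were tested and 5 rose, with a median log2 fold change of 0.95, where 5.97% of all genes rose. The number of the list that rose became 2 without replicate 2, 3 without replicate 3 and none without the library block. Klrd1, which encodes CD94, was at 274, 374 and 518 CPM against 179, 181 and 160.2 CPM (log2 fold change 1.09 ± 0.16, adjusted p = 0.000803). Its partners Klrc1 (NKG2A, inhibitory) and Klrc2 (NKG2C, activating) had log2 fold changes of 0.80 ± 0.16 and 0.72 ± 0.15. Klre1 and Klri2, which form receptors with each other, had 1.11 ± 0.14 and 1.40 ± 0.34. The calls of Klrc2 and Klri2 were lost in 4 of 15 and 4 of 14 alternatives. Klrc1 and Klrc2 are close paralogs, so how reads were shared between them is uncertain.

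Some chemokine receptors rose, while Ccr7 and Cxcr3 fell. Of 21 listed genes of migration, adhesion and residency, 20 were tested, 7 rose and 6 fell, with a median log2 fold change of -0.24, where 5.97% of all genes rose and 5.79% fell. Without the library block 3 rose and 2 fell. Cxcr6, the receptor of CXCL16 and common on T cells that stay in tissue, was at 519, 923 and 979.8 CPM against 192, 154 and 126 CPM (log2 fold change 2.31 ± 0.20, adjusted p = 1.99e-05). Ccr2, the receptor of CCL2, was at 96.0, 187 and 241 CPM against 42.0, 49.2 and 54.2 CPM (log2 fold change 1.78 ± 0.17). Cxcr3, the receptor of CXCL9 and CXCL10, was at 45.1, 41.7 and 44.2 CPM against 77.0, 108 and 79.9 CPM (log2 fold change -1.09 ± 0.18, adjusted p = 0.00200). In Cxcr6 and Ccr2 replicate 1 had the lowest value among Havcr2/Entpd1+ cells, and that value was still above every value of the other cells.

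Chemokine ligands were uneven between cells. Of 8 cytokine and chemokine genes tested, 4 rose and 1 fell, where 5.97% of all genes rose and 5.79% fell. The median log2 fold change of the list was 0.45. The number that rose was 1 with DESeq2, without replicate 2 and without the library block, and 2 without replicate 1. Ccl5, a chemokine that draws T cells, was at 11823, 19468 and 20972 CPM against 4496, 6499.8 and 7353 CPM, with a log2 fold change of 1.45 ± 0.05 and the smallest adjusted p in the comparison (5.59e-09). Ccl4 and Ccl3 passed with log2 fold changes of 2.73 ± 0.64 (adjusted p = 0.0153) and 2.98 ± 0.68 (adjusted p = 0.0123), calls lost in 5 of 15 and 4 of 12 alternatives. Their UMIs came from few cells: 467 of 530 Ccl4 UMIs and 115 of 121 Ccl3 UMIs in replicate 2 lay in 1 cell. Ccl3 in replicate 3 was at 16.8 CPM, below the 21.3 CPM of the other cells. Ifng, the interferon that raises MHC class I on beta cells, was at 60.8, 43.0 and 35.0 CPM against 37.8, 17.5 and 19.8 CPM (log2 fold change 0.89 ± 0.22, adjusted p = 0.0180), and its call was lost in 6 of 14 alternatives (adjusted p 0.00498 to 0.311). Xcl1, a chemokine that draws cross-presenting dendritic cells, fell, from 1025, 173 and 179 CPM to 467, 29.1 and 51.8 CPM (log2 fold change -1.70 ± 0.22, adjusted p = 0.000357). Csf1, a macrophage growth factor, was under the count filter, with 3, 12 and 11 UMIs in the Havcr2/Entpd1+ cells and 3, 1 and 9 in the larger group of other cells.

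**Figure D3:**
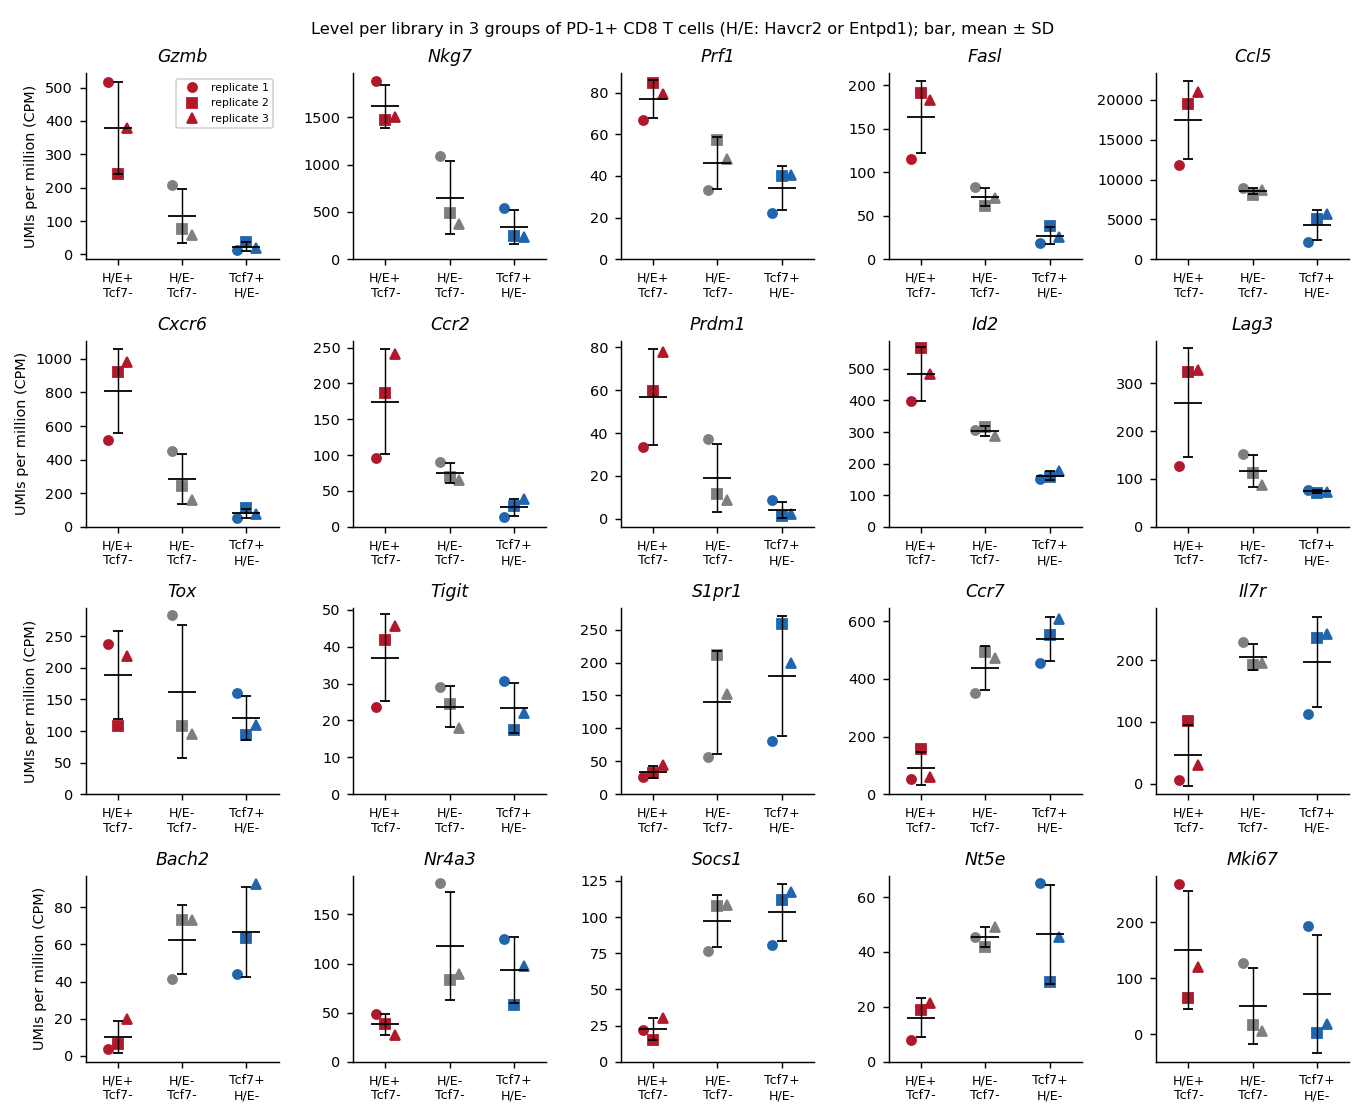
Level of 20 genes in CPM (vertical axis) in each library, for Havcr2/Entpd1+ Tcf7- cells (red), Tcf7- cells without Havcr2 and Entpd1 (grey) and Tcf7+ cells without them (blue); symbols mark replicates, bars the mean ± SD. Gzmb, Fasl, Ccl5, Cxcr6 and Id2 are highest in the red group in every library. Socs1, Bach2, Ccr7 and Il7r are lowest in it in every library, and Tox, Tigit and Mki67 overlap.

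Genes of the progenitor and memory state fell, beyond Tcf7 itself, which the gate had set to 0. Of 18 listed genes 16 were tested and 15 fell, with a median log2 fold change of -1.82, where 5.79% of all genes fell. Leaving out replicate 2 left 11 lower genes, and leaving out the library block left 5. Bach2, a repressor that holds T cells back from effector differentiation, was at 3.92, 6.32 and 19.8 CPM against 44.2, 66.7 and 82.1 CPM (log2 fold change -2.76 ± 0.28, adjusted p = 6.29e-05). Ccr7, a lymph node homing receptor, was at 52.9, 155 and 59.4 CPM against 405, 498 and 533 CPM (log2 fold change -2.53 ± 0.23). In both genes the groups did not overlap.

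Il7r, the IL-7 receptor chain that sustains memory cells, varied more. It was at 5.88, 101 and 30.5 CPM against 160.3, 218 and 211 CPM (log2 fold change -2.21 ± 0.34, adjusted p = 0.00121). Of its 80 UMIs in the Havcr2/Entpd1+ cells of replicate 2, 38 lay in 1 cell. S1pr1, which lets T cells leave tissue, was at 25.5, 32.9 and 44.2 CPM against 70.5, 236 and 176 CPM (log2 fold change -2.30 ± 0.23). Tnfsf8, which encodes CD30 ligand, had 8, 0 and 7 UMIs in the Havcr2/Entpd1+ cells (log2 fold change -2.31 ± 0.53, adjusted p = 0.0133), a call lost in 4 of 13 alternatives. Ikzf1 was the tested gene of the list that did not fall, at 114, 183 and 238 CPM against 117, 154 and 145 CPM (log2 fold change 0.29 ± 0.15, adjusted p = 0.240).

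The transcription factors split. Of 21 listed factors of exhaustion and effector function, 9 rose and 5 fell, where 5.97% of all genes rose and 5.79% fell. The median log2 fold change of the list was 0.05. Without replicate 2 these counts were 4 and 4, without replicate 3 they were 5 and 3, and without the library block 2 and 0. Prdm1, which encodes the repressor BLIMP-1, was at 33.3, 59.4 and 77.7 CPM against 18.5, 7.27 and 7.84 CPM (log2 fold change 2.46 ± 0.36, adjusted p = 0.000816). Id2, an inhibitor of E proteins that favours effector cells, was at 398, 568 and 485 CPM against 207, 216 and 227 CPM (log2 fold change 1.10 ± 0.12, adjusted p = 8.88e-05). Maf and Ikzf3 rose with log2 fold changes of 1.22 ± 0.17 and 0.90 ± 0.16, and the call of Ikzf3 was lost in 4 of 16 alternatives. Eomes, a T-box factor of memory and exhausted CD8 T cells, was at 180.3, 224 and 283 CPM against 125, 167 and 188 CPM (log2 fold change 0.46 ± 0.12, adjusted p = 0.0293). Its call was lost in 10 of 16 alternatives, among them DESeq2 and leaving out any 1 of the 3 libraries (range of adjusted p over the alternatives 0.00164 to 0.622), while the direction held in all 16. Tox, which is known to establish exhaustion, was at 237, 109 and 219 CPM against 204, 95.3 and 103 CPM and did not pass (log2 fold change 0.47 ± 0.17, adjusted p = 0.0945).

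Sequence upstream of the start sites is shown for Gzmb, Nkg7 and Prdm1, 3 genes that rose and whose windows held letters that T-cell transcription factors are known to bind. The 250 bases before each start come from the RefSeq promoter table (GRCm38.p6) and read 5′ to 3′ on the strand of the gene, and capitals mark motif matches. Gzmb lies on the minus strand at chr14:56262335-56262584, with AP-1 letters (TGANTCA) from base 193 and RUNX letters (TGTGGTT) from base 217. Nkg7 lies on the plus strand at chr7:43436888-43437137, with T-box letters (AGGTGTGA) from base 237. GENCODE M21 starts this gene at chr7:43437073, so the end of the window, with the T-box letters, lies inside the gene as placed there. Prdm1 lies on the minus strand at chr10:44458749-44458998, with AP-1 letters from base 203. This window belongs to a RefSeq start inside the gene, which GENCODE M21 places at chr10:44437177-44528501, and the upstream start of that annotation was not examined.
Gzmb: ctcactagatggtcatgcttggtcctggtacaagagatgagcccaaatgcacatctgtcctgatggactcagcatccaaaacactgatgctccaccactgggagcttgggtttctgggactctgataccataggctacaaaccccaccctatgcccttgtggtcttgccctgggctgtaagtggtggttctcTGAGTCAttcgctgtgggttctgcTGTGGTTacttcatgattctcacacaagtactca
Nkg7: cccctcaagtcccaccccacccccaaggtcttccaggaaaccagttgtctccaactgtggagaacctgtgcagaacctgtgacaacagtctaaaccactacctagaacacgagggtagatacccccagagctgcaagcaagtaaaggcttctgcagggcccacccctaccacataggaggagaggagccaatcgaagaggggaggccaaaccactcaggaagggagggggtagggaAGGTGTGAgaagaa
Prdm1: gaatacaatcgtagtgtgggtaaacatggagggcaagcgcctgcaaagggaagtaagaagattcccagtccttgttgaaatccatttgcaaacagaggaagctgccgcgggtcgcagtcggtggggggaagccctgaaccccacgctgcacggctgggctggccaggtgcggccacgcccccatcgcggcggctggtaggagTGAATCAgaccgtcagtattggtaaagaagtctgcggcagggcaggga
Both strands were searched for these letters and for TCF (ATCAAAG) and NR4A (AAAGGTCA) letters in windows from 250 bases before to 50 after each start. Of all 27025 windows in the table, 7.93% held the AP-1 letters, 5.37% the RUNX letters and 1.27% the T-box letters. Among the 5974 of 7458 tested genes with a window, the shares were 4.35%, 3.47% and 0.75%. The windows of Cxcr6, Fasl, Bach2 and Dapl1 held none of the 5 motifs. Genes that fell held such letters too, with RUNX letters in the window of Il7r and TCF letters in that of Emb. The windows of Bach2, Emb and Il7r, like that of Prdm1, lay inside the gene as GENCODE M21 places it, and that of Nkg7 partly so. A match is a description of the sequence and not evidence of binding. Windows were matched for 325 of the 445 genes that rose and 325 of the 432 that fell, and no comparison of their shares is given.

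Several genes induced through the antigen receptor were lower. Of 19 listed, 16 were tested, 6 fell and 1 rose, where 5.79% of all genes fell and 5.97% rose. The median log2 fold change of the list was -0.55. Nr4a1, a nuclear receptor switched on soon after receptor signalling, was at 37.2, 10.1 and 7.62 CPM against 65.6, 31.6 and 32.9 CPM (log2 fold change -1.39 ± 0.28). Its relative Nr4a3 was at 49.0, 37.9 and 27.4 CPM against 144, 61.5 and 95.6 CPM (-1.38 ± 0.21). Fos and Junb, parts of AP-1, fell with -1.79 ± 0.25 and -0.86 ± 0.11. Cd69, an early activation marker that also holds cells in tissue, was at 60.8, 29.1 and 25.9 CPM against 68.4, 79.9 and 84.6 CPM (log2 fold change -1.15 ± 0.26), a call lost in 4 of 15 alternatives. Dusp5, a nuclear phosphatase of ERK, rose from 199 ± 32.7 to 368 ± 39.6 CPM (log2 fold change 0.84 ± 0.12, adjusted p = 0.000592). The list had 4 lower genes without replicate 2, 3 without replicate 3 and none without the library block.

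Of the inhibitory receptors outside the gate, 3 of 10 tested rose and none fell, with a median log2 fold change of 0.34, where 5.97% of all genes rose. The count was 2 with DESeq2, 4 without replicate 1, 1 without replicate 2, 2 without replicate 3 and 0 without the library block. Lag3, a receptor of MHC class II, was at 127, 324 and 328 CPM against 100.5, 87.2 and 84.3 CPM (log2 fold change 1.44 ± 0.22, adjusted p = 0.00125). Replicates 2 and 3 were far above their other cells, while replicate 1 was slightly above. Lilrb4a and Klrc1 rose with 1.30 ± 0.28 and 0.80 ± 0.16, calls lost in 4 of 14 and 5 of 16 alternatives. Lilrb4a, which myeloid cells also express, had 22 of its 49 UMIs of replicate 2 in 1 cell, and in that library all 60 Apoe, 14 Lyz2 and 12 C1qa UMIs, macrophage genes, lay in 1 cell each; the part of such RNA was not tested. Tigit, an inhibitory receptor of CD155, was at 23.5, 41.7 and 45.7 CPM against 29.2, 18.8 and 20.4 CPM, higher in 2 of 3 libraries, and did not pass (log2 fold change 0.73 ± 0.27, adjusted p = 0.111). Its activating competitor Cd226 was at 64.7, 15.2 and 13.7 CPM against 44.2, 15.0 and 18.5 CPM (log2 fold change 0.12 ± 0.27, adjusted p = 0.836). Ctla4 (log2 fold change 0.28 ± 0.15) and Cd5 (0.20 ± 0.14) did not pass either.

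Of 11 costimulatory receptors tested 3 were higher and 2 lower, where 5.97% and 5.79% of all genes were, and the list median was 0.05. Without the library block 1 was higher and 1 lower. Cd7 had the largest rise, from 138 ± 13.8 to 427 ± 74.9 CPM (log2 fold change 1.58 ± 0.13, adjusted p = 1.29e-05). Cd2, the receptor of CD48 in mice, rose with 0.72 ± 0.12 and Tnfrsf9, which encodes 4-1BB, with 0.45 ± 0.12. Slamf7 fell from 62.7 ± 1.57 to 26.1 ± 7.41 CPM (log2 fold change -1.28 ± 0.20) and Tnfrsf4, which encodes OX40, with -0.71 ± 0.18. The calls of Tnfrsf9 and Tnfrsf4 were lost in 6 of 16 and 6 of 15 alternatives. Cd27, at 416, 555 and 550.1 CPM against 475, 576 and 682 CPM, did not pass (adjusted p = 0.172).

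Entpd1 was part of the gate, and no other listed gene of extracellular ATP and adenosine passed as higher. Of 7 tested, 4 fell and none rose, where 5.79% of all genes fell and 5.97% rose. The list had 2 lower genes without replicate 1 or 2 and 1 without the library block. Nt5e, which encodes CD73, the enzyme that turns the AMP left by CD39 into adenosine, was at 7.84, 19.0 and 21.3 CPM against 54.9, 32.5 and 45.8 CPM (log2 fold change -1.40 ± 0.29, adjusted p = 0.00773). Adora2a, the main adenosine receptor of T cells, had a log2 fold change of -0.76 ± 0.19, a call lost in 8 of 15 alternatives (adjusted p up to 0.804). Adk, which phosphorylates adenosine inside the cell, fell with -1.57 ± 0.17. Dpp4, which encodes the peptidase CD26, had -0.95 ± 0.24, a call lost in 4 of 14 alternatives (adjusted p up to 0.224).

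Among 10 cytokine receptor chains tested, 2 rose and 2 fell, with a list median of -0.15, where 5.97% of all genes rose and 5.79% fell. With DESeq2 1 rose and 1 fell, and none passed without the library block. Il2rb, the β chain that IL-2 and IL-15 share, was at 331, 707 and 661 CPM against 242, 337 and 297 CPM (log2 fold change 0.86 ± 0.12, adjusted p = 0.000774), where Il7r fell. Il10ra rose with 1.15 ± 0.26, a call lost in 4 of 14 alternatives. Of the BCL2 family, 5 of 9 tested rose and none fell, among them the survival genes Bcl2l1 (1.25 ± 0.26) and Bcl2a1d (1.15 ± 0.17) and the death effector Bak1 (0.90 ± 0.25). The call of Bak1 was lost in 5 of 14 alternatives, that of Bcl2l1 in 3 of 14 and that of Bcl2a1d in 3 of 16. The count was 3 without replicate 1, 2 without replicate 2 and none without the library block. Bcl2a1d has close paralogs, so its share of reads is uncertain.

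Cell-cycle genes were higher. Of 22 listed and tested, 12 rose and none fell, where 5.97% of all genes rose and 5.79% fell. The median log2 fold change of the list was 0.90, and none of its genes passed without the library block. Cells with a UMI of the proliferation genes Mki67 or Top2a were 23 of 55 (41.8%), 18 of 81 (22.2%) and 12 of 72 (16.7%) Havcr2/Entpd1+ cells in replicates 1, 2 and 3. Among the other PD-1+ CD8 T cells they were 30.6%, 10.9% and 11.2%. The share was higher in 3 of 3 libraries, which gives an exact two-sided sign-flip p of 0.25, the smallest that 3 libraries allow. Median depth was 10172, 13089 and 11483.5 UMIs in Havcr2/Entpd1+ cells with Mki67 or Top2a and 5588.5, 7072 and 7738 in those without. After thinning every cell to 2000 UMIs, Mki67 was seen in 11.1 ± 8.2% of Havcr2/Entpd1+ cells and 3.8 ± 4.0% of the others (mean ± SD, n = 3 libraries). Mki67 was at 269, 64.5 and 120.4 CPM against 179, 14.1 and 12.5 CPM (log2 fold change 1.70 ± 0.34, adjusted p = 0.00671). Both groups were highest in replicate 1, and the groups overlapped across libraries. Birc5, which encodes survivin, and the cyclin Ccna2 rose with 1.69 ± 0.23 and 1.94 ± 0.38.

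The comparison was repeated without the 53 cycling cells and those of the comparison group. The cytotoxic list then had 8 higher and 2 lower of 16 tested, and the progenitor and memory list 13 lower of 16. Of the genes of oxidative phosphorylation encoded in the nucleus, 7 of 13 tested rose, and 5 of 13 without cycling cells. Leaving out replicate 1, 2 or 3 left 4, 1 or 3 of them, and none passed without the library block. Cox5a (log2 fold change 0.60 ± 0.12), Sdhb (0.61 ± 0.14) and Ndufs6 (0.50 ± 0.13) were among them, and the calls of Ndufs6 and Sdhb were lost in 9 and 5 of 15 alternatives. Of 13 tested genes of glycolysis 1 passed as higher, near the 5.97% of all genes, with a list median of 0.17. This was Pkm (0.46 ± 0.12), whose call was lost in 5 of 16 alternatives.

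Transcripts of ribosomal proteins were lower, which was noticed after the values were seen. The median share of ribosomal UMIs per cell was 24.7%, 23.7% and 24.5% in Havcr2/Entpd1+ cells and 28.5%, 29.8% and 30.6% in the other cells. Of 88 genes of cytosolic ribosomal proteins tested, 59 fell and none rose, where 5.79% of all genes fell and 5.97% rose. The median log2 fold change of these 88 genes was -0.30, against 0.0004 over all genes tested. Rps27, for example, was at a mean of 4913 CPM against 7568 CPM (log2 fold change -0.66). The number that fell was 27 of 87 without replicate 2 and 12 of 88 without replicate 3, and none of the 88 passed without the library block.

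The interferon response gave no common direction, with 2 of 14 tested higher and 2 lower where 5.97% and 5.79% of all genes were, and none without the library block. Gbp2 fell (-0.95 ± 0.17) and Isg20 rose (0.94 ± 0.20). Rsad2, an antiviral enzyme, passed as higher (adjusted p = 0.0381) but was at 1.96, 461 and 22.9 CPM, and 361 of its 365 UMIs in replicate 2 lay in 1 cell.

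**Figure D4:**
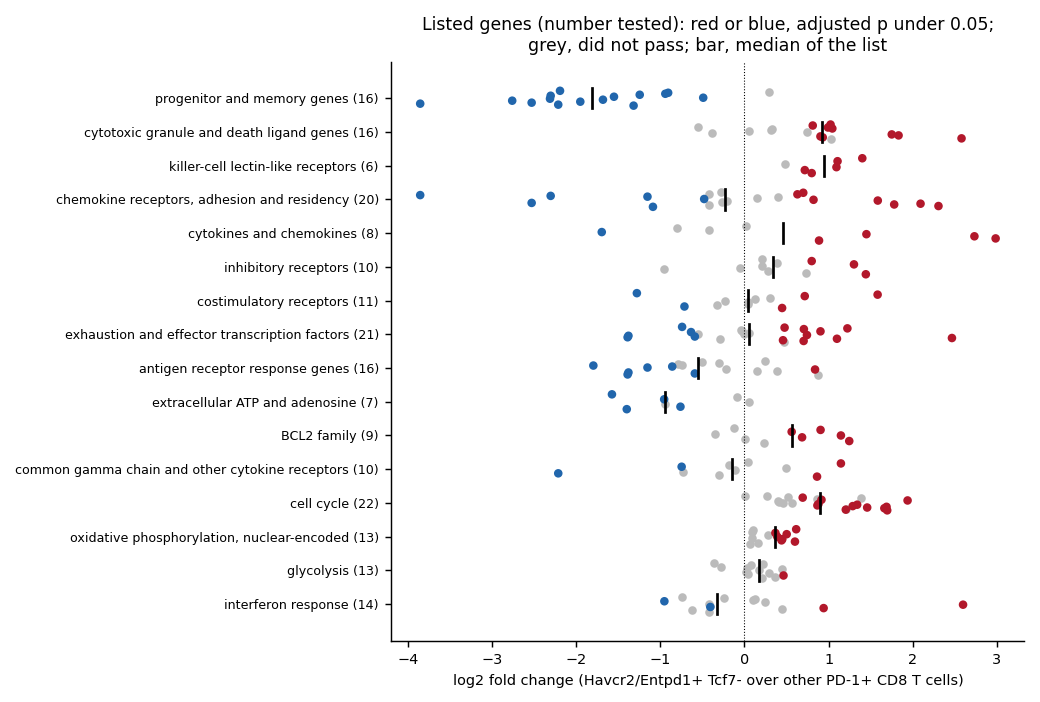
Log2 fold change of the listed genes (horizontal axis), Havcr2/Entpd1+ Tcf7- cells over other PD-1+ CD8 T cells, by list, with the number of genes tested in parentheses. Red points passed as higher, blue as lower and grey points did not pass; the bar is the median of the list and the dotted line that of all genes. The progenitor and memory list lies almost wholly to the left (15 of 16 lower), and the cytotoxic, killer-cell receptor and cell-cycle lists lie to the right.

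Outside the lists, the 10 largest rises among genes at 50 CPM or more included cell-cycle and histone genes and several with other roles. Ppp2r2c, a regulatory subunit of the phosphatase PP2A, was at 60.8, 84.7 and 123 CPM against 14.3, 15.0 and 13.2 CPM (log2 fold change 2.64 ± 0.22, adjusted p = 1.29e-05). Sytl2, which docks granules at the membrane, was at 27.4, 94.8 and 88.4 CPM against 13.5, 20.5 and 15.4 CPM (log2 fold change 2.06 ± 0.23). Mt1, a metallothionein that binds zinc, was at 217 ± 137 CPM against 45.2 ± 23.2 CPM (mean ± SD, n = 3 libraries; log2 fold change 2.15 ± 0.18). S100a4, a calcium-binding protein of effector and memory T cells, was at 976, 616 and 574 CPM against 316, 164 and 172 CPM (log2 fold change 1.71 ± 0.11). Lgalsl, Setbp1 and 1700017B05Rik rose with 1.76 ± 0.18, 1.75 ± 0.18 and 1.95 ± 0.20. The mitotic gene Ube2c and the histone genes Hist1h1b and Hist1h2ap rose with 2.18 ± 0.36, 2.19 ± 0.36 and 1.89 ± 0.34. The histone genes belong to a family of near-identical copies, and their values are uncertain for that reason.

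The 10 largest falls began with Dapl1, a gene of naive and early memory T cells. It had no UMI in any Havcr2/Entpd1+ cell, against 79.8, 60.3 and 60.2 CPM in the other cells. With a floor of 3 UMIs over the 1957554 UMIs of the Havcr2/Entpd1+ cells, or 1.53 CPM, it was at least 41.9-fold lower. Socs1, which restrains cytokine signalling through JAK kinases, was at 21.6, 15.2 and 30.5 CPM against 77.0, 106 and 109 CPM (log2 fold change -2.22 ± 0.22, adjusted p = 5.73e-05). Dusp10, a phosphatase of the kinases p38 and JNK, was at 23.5, 37.9 and 24.4 CPM against 101, 135 and 104 CPM (log2 fold change -2.03 ± 0.17). Ppp2r3a, another regulatory subunit of PP2A, fell with -2.05 ± 0.18, where Ppp2r2c rose. Gypc, Utp14b, Sh3bp5, Trib2 and Plaur fell with -2.25 ± 0.27, -2.51 ± 0.25, -2.14 ± 0.24, -2.06 ± 0.30 and -2.03 ± 0.27, and Pakap was at 0, 13.9 and 15.2 CPM against 21.4, 89.8 and 78.1 CPM.

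The comparison cells were next divided by Tcf7, to ask whether the pattern held against cells that, like the Havcr2/Entpd1+ cells, had no Tcf7 UMI. The Tcf7- Havcr2/Entpd1- cells, defined by 3 counts of 0, were the shallowest of the 3 groups in every library, with medians of 4438.5, 6850 and 5942 UMIs against 6542, 8709 and 6983 in Tcf7+ cells and 6376, 7783 and 8119 in Havcr2/Entpd1+ cells. Against the 426 Tcf7+ cells, 1055 of 6984 genes passed (15.1%), with 501 higher (7.17%) and 554 lower (7.93%). Against the 354 Tcf7- Havcr2/Entpd1- cells, 809 of 6984 passed (11.6%), with 400 higher (5.73%) and 409 lower (5.86%). Without replicate 2 the counts were 477 and 324, without replicate 3 they were 479 and 277, and without the library block 145 and 26. Both comparisons use the same sums of the Havcr2/Entpd1+ cells, and their values are given side by side for that reason. The cytotoxic list had 11 higher and none lower against Tcf7+ cells, and 8 higher and 1 lower against Tcf7- Havcr2/Entpd1- cells. The progenitor and memory list had 15 and 12 lower of 16 tested, and the cell-cycle list 12 and 16 higher of 22.

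Gzmb was at 13.5, 37.6 and 19.1 CPM in Tcf7+ cells and 207, 77.5 and 58.4 CPM in Tcf7- Havcr2/Entpd1- cells, and its log2 fold change was 3.74 ± 0.31 against the former and 1.84 ± 0.28 against the latter. Cxcr6 was at 52.7, 109.8 and 74.6 CPM in the former and 451, 243 and 160.3 CPM in the latter (log2 fold changes 3.24 ± 0.29 and 1.54 ± 0.27). Replicate 1 of the Tcf7- Havcr2/Entpd1- cells, at 450.5 CPM, came close to the 519 CPM of its Havcr2/Entpd1+ cells. Id2 was at 151, 158 and 177 CPM in Tcf7+ cells and 308, 314 and 286 CPM in Tcf7- Havcr2/Entpd1- cells (log2 fold changes 1.49 ± 0.13 and 0.64 ± 0.12). Prdm1 was at 8.58, 1.45 and 2.39 CPM and 37.2, 11.5 and 8.56 CPM in the same order (3.96 ± 0.50 and 1.86 ± 0.42). Its 37.2 CPM in the Tcf7- Havcr2/Entpd1- cells of replicate 1 lay above the level of the Havcr2/Entpd1+ cells of that library. For these 4 genes, and for Ccl5 (2109.7, 5086 and 5675 CPM, then 8957, 8107 and 8632 CPM), the mean of the Tcf7- Havcr2/Entpd1- cells lay between the other means. Lag3 had log2 fold changes of 1.73 ± 0.24 and 1.17 ± 0.24, and Tnfrsf9 of 0.75 ± 0.13 and 0.03 ± 0.13, the latter with an adjusted p of 0.941. Against Tcf7- Havcr2/Entpd1- cells Lag3 was higher in 2 of 3 libraries and its call was lost in 4 of 12 alternatives (adjusted p up to 0.188), and in replicate 1 its share of cells after thinning to 2000 UMIs was 23.6% against 24.4%. The calls of Id2, Cxcr6 and Prdm1 in that comparison were lost in 4 of 13, 3 of 13 and 3 of 11 alternatives. Tox had 0.54 ± 0.19 (adjusted p = 0.0683) and 0.31 ± 0.20 (adjusted p = 0.372), and Tigit 0.67 ± 0.28 (adjusted p = 0.130) and 0.72 ± 0.31 (adjusted p = 0.153).

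Few genes passed between the 2 groups without Havcr2 and Entpd1. In the same fit, 11 of 6984 genes (0.158%) differed between Tcf7- Havcr2/Entpd1- and Tcf7+ cells, a comparison added after the data were seen. Among them Gzmb, Cxcr6, Ccl5, Nkg7, Fasl, Ccr2, Id2, S100a4 and Tnfrsf9 were higher in the Tcf7- cells and Dapl1 was lower. In all 10 genes were higher (0.143%) and 1 was lower (0.0143%). Gzmb had a log2 fold change of 1.90 ± 0.35 (adjusted p = 0.0196) and Cxcr6 of 1.70 ± 0.30 (adjusted p = 0.0142) there. Il7r did not pass in this test, at 113, 236 and 243 CPM in Tcf7+ cells and 229, 192 and 195 CPM in Tcf7- Havcr2/Entpd1- cells (log2 fold change 0.03 ± 0.28, adjusted p = 1.00). On simulated counts, with no differences between libraries beyond depth, this test recovered 66% of log2 changes of 1. The lack of a Tcf7 UMI in a cell of this depth does not show that Tcf7 RNA was absent. Because the gate set Tcf7 to 0 in these cells, lower Tcf7 RNA and missed Tcf7 RNA cannot be told apart.

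Within single cells, the same genes were counted as the share of cells with a UMI after every cell was thinned to 2000 UMIs. B cells (Cd79a or Cd79b high, no Cd3 or Cd8 UMI) gave the background. Nkg7 was seen in 89.8 ± 0.65% of Havcr2/Entpd1+ cells (mean ± SD, n = 3 libraries), 44.8 ± 22.7% of Tcf7+ cells and 0.40% of B cells. Cxcr6 was seen in 69.5 ± 9.9%, 13.2 ± 3.9% and 0.13%, and Gzmb in 35.4 ± 6.1%, 3.4 ± 0.92% and 0.27%. Il7r went the other way, with 3.2 ± 1.6% of Havcr2/Entpd1+ cells, 26.1 ± 4.5% of Tcf7+ cells and 1.2% of B cells. For each of these genes the direction held in 3 of 3 libraries, with an exact sign-flip p of 0.25, the smallest possible. Tigit was seen in 7.8 ± 4.4% of Havcr2/Entpd1+ cells and 4.8 ± 2.4% of the other PD-1+ CD8 T cells, and Cd226 in 4.1 ± 3.0% and 3.7 ± 2.1%. At this depth those differences were within the spread of the libraries. Before thinning, the means in Havcr2/Entpd1+ and other cells were 97.7% and 73.5% for Nkg7, 90.9% and 34.6% for Cxcr6, 51.6% and 11.9% for Gzmb, 11.6% and 39.9% for Il7r, 28.2% and 15.3% for Tigit, and 9.97% and 13.0% for Cd226. No PD-1+ CD8 T cell was too shallow to thin, and the median depth of B cells was 4158, 6672 and 5743 UMIs.

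**Figure D5:**
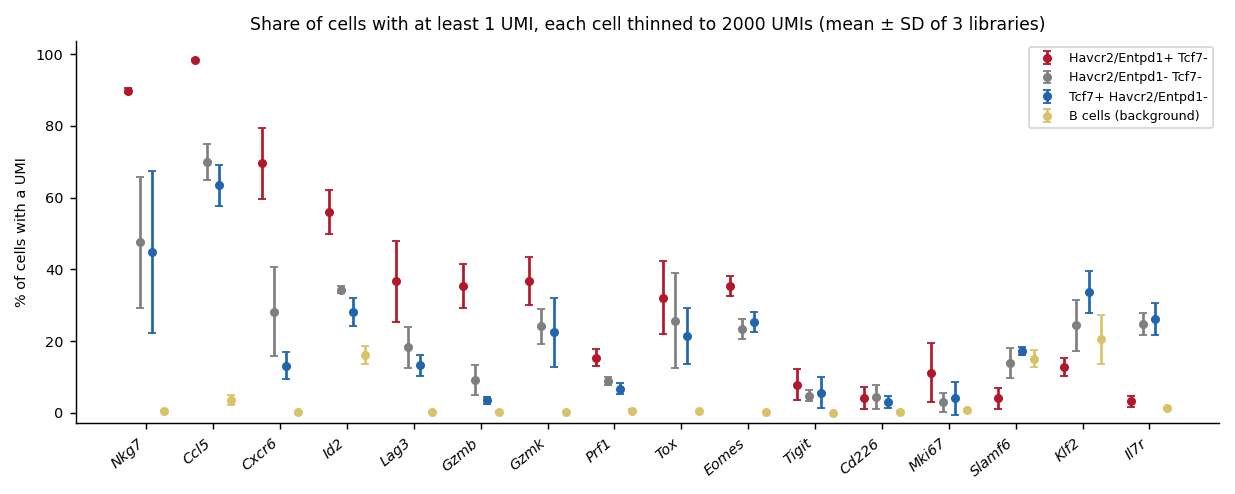
Share of cells with at least 1 UMI of each gene (vertical axis, percent) after thinning each cell to 2000 UMIs, as mean ± SD of 3 libraries, for Havcr2/Entpd1+ Tcf7- cells, both other Tcf7 groups and B cells as background. Nkg7, Ccl5, Cxcr6, Id2, Lag3 and Gzmb are most frequent in the Havcr2/Entpd1+ cells, Il7r and Slamf6 are less frequent there than in both other Tcf7 groups, and the bars of Tigit and Cd226 overlap.

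The Havcr2/Entpd1+ cells were then divided by which gate gene had a UMI, to ask whether TIM-3 and CD39 mark different cells. A count of 0 for the other gene does not show that it was silent. Exactly 1 UMI of Havcr2 and Entpd1 together was held by 50 of the 208 cells. After thinning, cells with both genes showed Entpd1 in 48.1% and Havcr2 in 52.7% (means over the libraries). Some cells may thus stand in the wrong group, so a lack of calls cannot answer that question. No gene of 2419 tested differed between the 47 cells with Havcr2 only and the 73 with Entpd1 only by edgeR's quasi-likelihood test (0% at an adjusted p of 0.05), and DESeq2 called none. Without replicate 2 there were 10 calls. At an unadjusted p under 0.05 there were 134 genes (5.54%). There were 12 to 28 cells per library and group. The test recovered 81.5% of simulated log2 changes of 2 and 36.7% of log2 changes of 1 over the genes tested. These rates do not allow for cells in the wrong group. Gzmb was at 582, 342 and 622 CPM in Havcr2-only cells, 489.9, 167 and 244 CPM in Entpd1-only cells and 496, 229.7 and 351 CPM in cells with both. Tox was at 172, 48.1 and 149.6 CPM, 329, 155 and 217 CPM and 209.8, 114 and 273 CPM in the same order of groups. The log2 fold change of Havcr2-only over Entpd1-only cells was 0.90 ± 0.25 for Gzmb (adjusted p = 0.524) and -0.92 ± 0.30 for Tox (adjusted p = 0.657). Il7r in Havcr2-only cells rested on 62 UMIs of replicate 2, at 7.18, 372 and 71.8 CPM.

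In the 40 PD-1+ CD8 T cells that held Tcf7 together with Havcr2 or Entpd1, Gzmb was at 0, 108 and 153 CPM, Cxcr6 at 77.5, 155 and 311 CPM and Il7r at 213, 193 and 74.5 CPM. Replicate 1 held 8 of them and replicates 2 and 3 held 16 each, too few for a test. Their median depth was 12499, 15684.5 and 14262 UMIs per cell, well above that of the other groups, and whether some were 2 cells in 1 droplet was not tested.

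T-cell receptor segments were uneven, which was seen in the values and not looked for. A UMI of a Trav16 segment was found in 18 of 55 (32.7%), 38 of 81 (46.9%) and 12 of 72 (16.7%) Havcr2/Entpd1+ cells. In the other PD-1+ CD8 T cells the shares were 18.3%, 17.7% and 9.69%, and in CD8 T cells without Pdcd1 6.71%, 7.25% and 4.80%. The cells without Pdcd1 were the shallowest of these in each library, with medians of 4631, 7005 and 6127 UMIs. After thinning to 2000 UMIs the shares were 7.27%, 25.9% and 2.78% in Havcr2/Entpd1+ cells, 7.78%, 6.45% and 2.81% in the other PD-1+ cells and 2.45%, 3.11% and 1.86% in cells without Pdcd1, and 0 in B cells. At equal depth the Havcr2/Entpd1+ cells thus stood above the other PD-1+ cells in replicate 2 alone, with 21 of 81 cells, while replicates 1 and 3 rested on 4 and 2 cells. Trav16 segments are known from CD8 T cells of NOD mice that recognise the islet antigen IGRP. Any Trav segment was seen in 43.6%, 54.3% and 26.4% of Havcr2/Entpd1+ cells, so most cells of replicates 1 and 3 showed no α chain segment, and the near-identical copies Trav16n and Trav16d-dv11 cannot be told apart with confidence. Trbv15 was seen in 21 of 81 Havcr2/Entpd1+ cells of replicate 2 but in 0 of 55 and 1 of 72 in replicates 1 and 3. Among the other PD-1+ CD8 T cells it was seen in 2 of 180, 22 of 248 and 4 of 392 in replicates 1, 2 and 3. CD8 T cells without Pdcd1 showed it in 31 of 869 in replicate 2. These Trbv15 counts were made before thinning. Clones cannot be defined from these counts.

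RNA of other cell types was present in some Havcr2/Entpd1+ cells. At least 2 UMIs of macrophage, dendritic cell, MHC class II or B-cell markers were found in 19, 23 and 14 of them, or 34.5%, 28.4% and 19.4%, against 26.7%, 41.5% and 32.9% of the other cells. The 10 dendritic cell and MHC class II markers summed to 1213, 2718 and 64.0 CPM in Havcr2/Entpd1+ cells and 336, 671 and 334 CPM in the others. Of the H2-Aa UMIs, 144 of 152 in replicate 1 and 325 of 441 in replicate 2 lay in 1 cell. The most abundant of these genes was Cd74. None of the 4 tested passed against all other PD-1+ CD8 T cells, but all 4 (H2-Aa, H2-Ab1, H2-Eb1 and Cd74) passed as higher against Tcf7+ cells and against Tcf7- Havcr2/Entpd1- cells. H2-Aa was at 298, 557 and 13.7 CPM in Havcr2/Entpd1+ cells, 24.5, 65.0 and 53.7 CPM in Tcf7+ cells and 76.5, 94.7 and 18.7 CPM in Tcf7- Havcr2/Entpd1- cells. In replicate 3 the Havcr2/Entpd1+ value was the lowest of the 3 groups, and the calls of H2-Aa were lost in 4 of 10 and 5 of 10 alternatives. The part that RNA from antigen-presenting cells had in these calls was not tested. The 12 macrophage markers summed to 86.2, 270.5 and 80.8 CPM against 116, 130 and 93.7 CPM, with Ctss most abundant and 2 of them at 0.

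Igkc, an immunoglobulin light chain, was at 4708, 149 and 131 CPM against 124, 100.4 and 109.7 CPM, and 2348 of its 2402 UMIs in replicate 1 lay in 1 cell. Igkc did not pass against all other PD-1+ CD8 T cells. It passed as higher against Tcf7+ cells and against Tcf7- Havcr2/Entpd1- cells. Replicate 1 also held 429 of 430 Igha UMIs in 1 cell, and Igha passed as higher against all other PD-1+ CD8 T cells (adjusted p = 0.0345). Ighm fell with -2.60 ± 0.30. Tcrg-C2, Tcrg-C4 and Trgv2, segments of the γ chain locus, rose with 1.32 ± 0.18, 1.32 ± 0.17 and 1.24 ± 0.16, while the δ chain gene Trdc, which defines γδ T cells, was at 0, 12.6 and 16.8 CPM against 4.28, 23.9 and 10.3 CPM. The 7 γδ T-cell markers summed to 318, 195 and 367 CPM against 125, 113 and 153 CPM, with 2 of them at 0. Foxp3 held 2, 7 and 1 UMIs in the Havcr2/Entpd1+ cells. The 7 NK cell markers summed to 19.6, 58.1 and 1.52 CPM against 64.8, 95.3 and 5.96 CPM, with 4 at 0. Endocrine and acinar RNA, with Ins2 the most abundant, summed to 64.7, 46.8 and 19.8 CPM against 94.8, 48.7 and 27.9 CPM. Without all cells that carried 2 or more UMIs of other cell types, the cytotoxic list had 9 higher and 1 lower of 16 tested and the progenitor and memory list 13 lower of 15.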

How the data were processed

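The deposited files hold UMI counts per gene and cell, made by the authors with Cell Ranger 6.0.1 on mm10, as named in the submitters' processing notes. The 3 libraries held 5844, 9537 and 11566 cells and 33851381, 74775394 and 80806452 UMIs, and 5727, 9199 and 11216 cells passed the filter on depth and mitochondrial UMIs. They came from 2 independent experiments, and which library belongs to which was not given in the sources used here. The members and gene lists were chosen with earlier results of these data known. UMIs were summed per library and group and tested with edgeR 4.0.16 (R 4.3.3; filterByExpr, TMM, quasi-likelihood test, library as a block, Benjamini-Hochberg threshold 0.05). The groups of a library come from the same pool of mice, which gives the pairing. Over 6864 genes, deviations of sums from their group means correlated at 0.25 to 0.62 within 1 library. Between different libraries they correlated at -0.50 to 0.33. Taking deviations from means over 3 libraries pushes the latter to negative values, so this contrast is no separate support for the pairing. Named were, from each list, the called genes with the largest changes and the most abundant uncalled ones, a fixed set of 11 genes (Tigit, Lag3, Tox, Eomes, Id2, Gzmb, Prf1, Ifng, Cd226, Mki67 and Cxcr6), and outside the lists the 10 largest rises and falls with 1 sign in 3 of 3 libraries and at least 50 CPM in the higher group. The fit was tested on simulated counts and recovered 62.5% of log2 changes of 1 and 90.5% of log2 changes of 2 in the comparison with other PD-1+ CD8 T cells. The simulated libraries differed in depth alone, without the pairing of real libraries, so these rates need not hold for the real counts. Alternatives were DESeq2 1.42.0, other size factors, filters, gates, thinning and leaving out each library. Scrublet (scanpy 1.11.5) at its own threshold marked no cell, so the 7.6% of cells with the highest scores were removed as an alternative. Exact intervals are Clopper-Pearson at 95% and cover counting error only. Coordinates come from GENCODE M21 and promoters from RefSeq. Some genes that were tested are not reported here.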

Additional observations from a re-analysis of the deposited data

How the results depend on the processing

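The number of genes that differed moved with the test and the cells kept. For the comparisons with other PD-1+ CD8 T cells, Tcf7+ cells and Tcf7- Havcr2/Entpd1- cells, in that order, DESeq2 called 444, 566 and 405 genes, the cell filter of the study left 90, 170 and 86, and thinning to 2000 UMIs left 23, 75 and 26, the last 2 with fewer genes tested. Leaving out 1 library gave 411 to 761, 477 to 1105 and 277 to 814. Without the pairing of groups by library, that is without the replicate block, the counts were 65, 145 and 26, and 0 for Havcr2-only against Entpd1-only cells. That last comparison had 48 calls with no filter on low counts and 0 to 10 when 1 library was left out. RLE size factors changed the call of none of 137 gene results, and 82 lost theirs without the block, 35 with DESeq2 and 15, 32 and 30 without replicate 1, 2 and 3. Some single values changed sign, each with its log2 fold change given. Against other PD-1+ CD8 T cells these were Hist1h2ap (-0.33) without cycling cells, Gzma with the cell filter of the study (-0.83) and without cycling cells (-0.11), and Ctla4 after thinning (-0.14). So did Cd226 without replicate 1 (range over the libraries left out -0.28 to 0.35) and with Entpd1 alone in the gate (-0.48), Rsad2 without replicate 2 (range -0.55 to 4.32) and without cycling cells (-0.66), and Trdc without replicate 2 (range -1.19 to 0.17) and without cells with other RNA (0.23). With comparison cells free of the Cd3 and Cd79a conditions H2-Aa was at -1.25, Cd74 at -1.61 and Igkc at -1.27, and Cd74 was at -0.086 without cells with other RNA and -0.25 after thinning. Against Tcf7+ cells, Gzma turned with the filter of the study (-1.08) and after thinning (-0.45), Eomes after thinning (-0.047) and Cd226 without replicate 1 (range -0.19 to 0.53). Against Tcf7- Havcr2/Entpd1- cells, Gzma turned with the filter of the study (-0.70), Tox without replicate 3 (range -0.13 to 0.61) and Tnfrsf9 without replicate 2 (range -0.072 to 0.12). The causes were not tested. The mean share of Havcr2/Entpd1+ cells was 21.2%, and 18.6% to 22.2% under its alternatives. Single libraries moved more. With the cell filter of the study the shares were 17.6%, 32.2% and 11.7% in replicates 1, 2 and 3, resting on 23, 19 and 16 Havcr2/Entpd1+ cells. The planned removal of Scrublet calls was not run, since Scrublet marked no cell; removal of the highest scores and of cycling cells was chosen after seeing the data. Depth limits the gate itself, since a gene at few UMIs per cell is missed in many cells.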
